A study of Danio rerio with 11 samples.

Results

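Core ciliogenesis genes encode the machinery that assembles and maintains cilia. They were followed here in 11 zebrafish embryos sequenced singly, as 46 gene names in 5 complexes plus a pair of ciliary GTPases. A row of the deposited tables was taken as a member if its name was on that list or began with ift and a digit. This found 32 of the 46 names among 14473 genes, and no further ift row. The members were 2 of 6 subunits of intraflagellar transport complex A (IFT-A), 10 of 12 subunits of complex B (IFT-B), 5 of 8 motor subunits, 8 of 9 genes of the BBSome and its partners, 5 of 9 transition zone genes and both GTPase genes. The names ift43, ift122, ift140, wdr19, ift46, ift74, wdr60, wdr34, kif17, bbs9, tctn1, tctn2, tmem67 and cc2d2a had no row of their own and were not analysed here under those names.

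The tested embryos were 6 mutants (replicates 1, 3, 4, 5, 6 and 7) and the comparison embryos 5 siblings (replicates 2, 3, 4, 7 and 8), all whole embryos at about 25 hours after fertilisation. The series design gives the parents as heterozygous for the uw8013 allele of rfx4, which encodes a transcription factor of the RFX family, and the offspring as sorted by appearance. The growth protocol names parents heterozygous for zic2 mutations instead. Siblings of such a cross can carry 0 or 1 mutant copy, and the labels do not genotype each embryo.

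A cilium grows by intraflagellar transport. Trains built on IFT-B, driven by kinesin-2, carry building material to the tip, and IFT-A with the dynein-2 motor returns them to the base. The BBSome links membrane proteins to these trains, and the transition zone at the ciliary base acts as a gate for what enters and leaves. Primary cilia are needed for vertebrate Hedgehog signalling, including the patterning of the ventral neural tube, and RFX factors bind promoters of many ciliary genes in nematodes and vertebrates. The comparison therefore asks whether transcripts of this machinery differ in embryos with the mutant phenotype.

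The level of rfx4 itself ran from 16.7 to 27.3 TPM with a median of 19.2 TPM in mutants, against 37.6, 27.7, 24.8, 24.9 and 33.2 TPM in siblings. TPM is a share of all transcripts that is scaled for gene length. The transcript was thus present in every mutant, and mutants 6 (27.3 TPM) and 7 (25.1 TPM) lay within the sibling range. The edgeR fit put mutants at 0.69 times the sibling level (95% interval 0.56 to 0.86, adjusted p = 0.475). The library totals were 16238368 to 18296024 counts in mutants and 17133737 to 21104811 counts in siblings.

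All 32 members were expressed in every embryo, at a median over members of 10.3 TPM, against 16.6 TPM over all genes tested. All 32 also passed the filter on low counts, with mean counts per embryo from 28.8 (dync2h1) to 943 (cep290). The highest levels belonged to ift20, an IFT-B subunit also found at the Golgi in mammals, at 24.5 TPM averaged over all embryos, and to b9d1, a B9-domain protein of the transition zone, at 24.3 TPM. These were the top 2 members in each of the 11 embryos, in either order, and their ranges of 21.8 to 28.8 TPM and 21.2 to 28.0 TPM overlapped. Among the next were kif3a (18.7 TPM), ift57 (18.1 TPM), ift52 (17.8 TPM) and tmem231 (17.7 TPM), whose ranges over the embryos overlapped one another. At the bottom lay bbs4 (2.99 TPM) and bbs1 (2.61 TPM), both subunits of the BBSome.

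Subunits of the same complex differed widely in level. In IFT-B the mean over embryos ran from 24.5 TPM for ift20 to 7.12 TPM for ift81, which encodes a tubulin-binding subunit, and in the BBSome group from 14.97 TPM for arl6 to 2.61 TPM for bbs1. In the motors kif3a stood at 18.7 TPM and dync2h1, the heavy chain of dynein-2, at 4.49 TPM. For dync2h1 the median number of counts per TPM was 6.31, against 90.4 for cep290, so the length used for dync2h1 was 6.98% of that for cep290. Dynein heavy chains are among the longest proteins of a cell, so its level rests on a short gene model and on 28.8 counts per embryo.

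**Figure D1:**
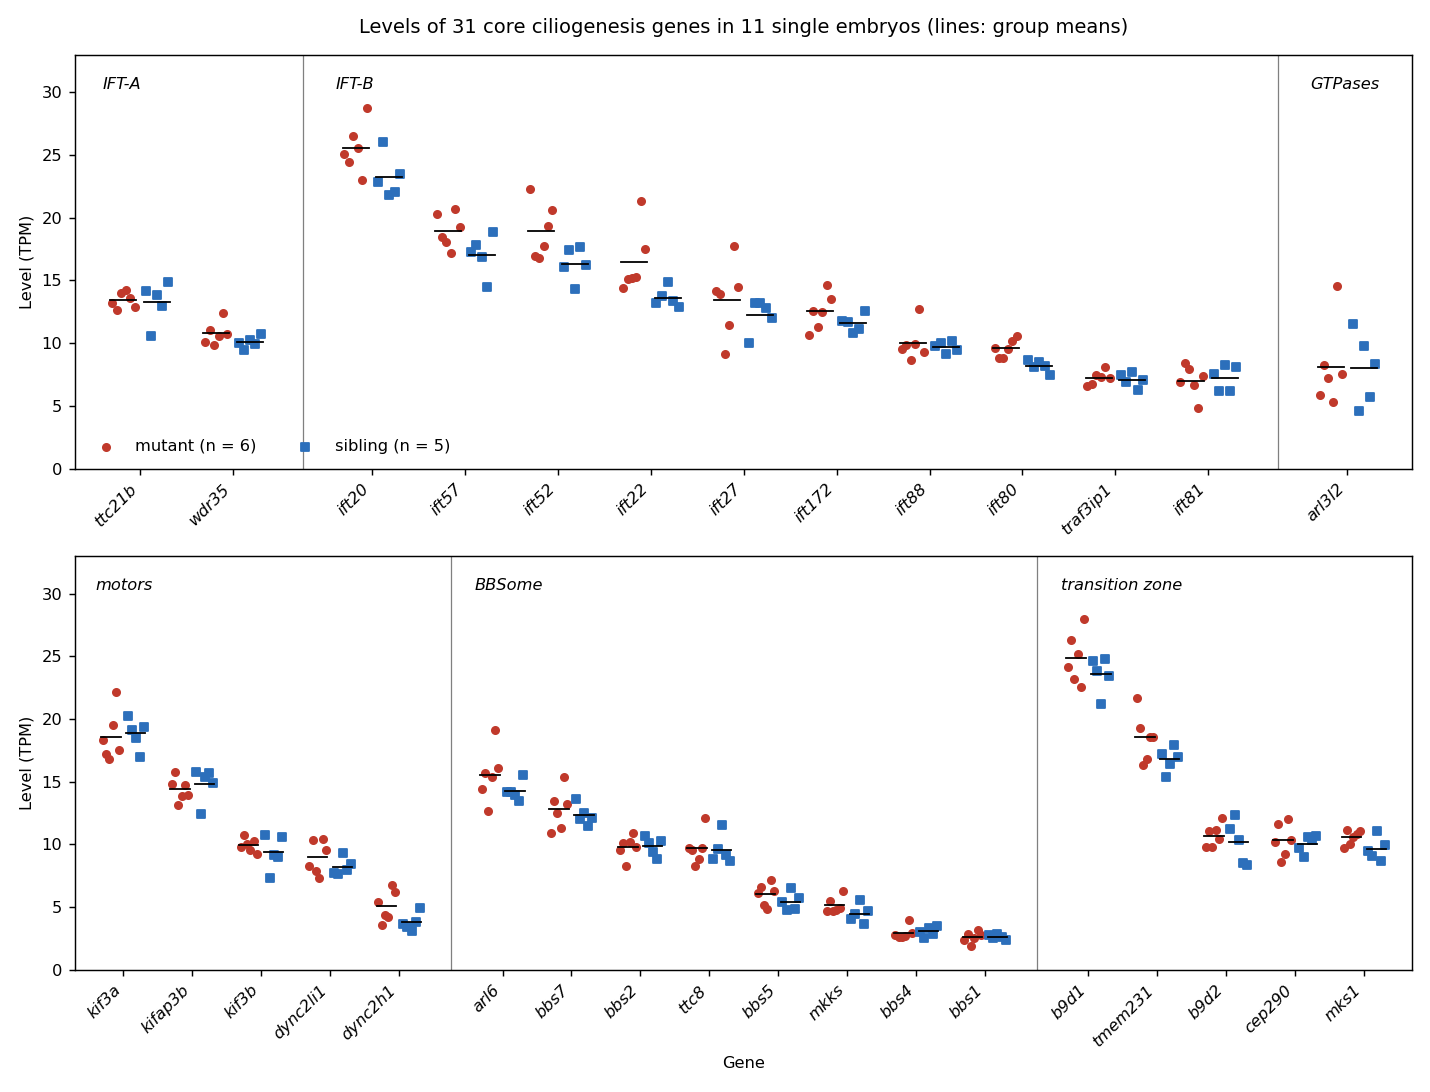
Level in TPM (vertical axis) of 31 ciliogenesis genes (horizontal axis) in 6 mutant embryos (red circles) and 5 sibling embryos (blue squares), with black lines at the group means. The groups overlapped for every gene except ift80, whose 6 mutants (8.83 to 10.6 TPM) all lay above the 5 siblings (7.46 to 8.68 TPM).

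No member differed between mutants and siblings past the threshold. The edgeR quasi-likelihood test over all genes called 0 of 12301 genes (0%) at an adjusted p of 0.05, and 0 of the 32 members, and none of the members had groups without overlap in CPM, as 0.943% of all genes did (0.455% higher and 0.488% lower). DESeq2 called 43 of 13936 genes (0.309%) in the same embryos, and 0 members. At an unadjusted p under 0.05 edgeR had 1 member higher (3.12%) and 0 lower. Of all genes tested 6.85% passed this, 3.79% higher and 3.06% lower, so the members' share was near that of the whole table. The member was ift80.

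Most members nevertheless had fitted values slightly above those of siblings. Of the 32, 23 (71.9%) had higher and 9 lower fitted values in mutants, against 50.2% higher over all 12301 genes. The median log2 fold change was 0.05 over the members and 0.0009 over all genes tested. Without mutant 6 the count was 19 higher and the median 0.03, and ift80 was again higher at an unadjusted edgeR p under 0.05, as 3.57% of all genes then were. In limma-voom with sample weights, on all embryos, 17 members were higher and the median was 0.012, against −0.0055 over all genes. In the main edgeR fit the fold lay between 0.9 and 1.1 for 27 members, and for 30 the 95% interval lay within 0.667 to 1.5 times the sibling level. The 2 with wider intervals were dync2h1 and arl3l2. A missed threshold does not show that the groups were alike.

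**Figure D2:**
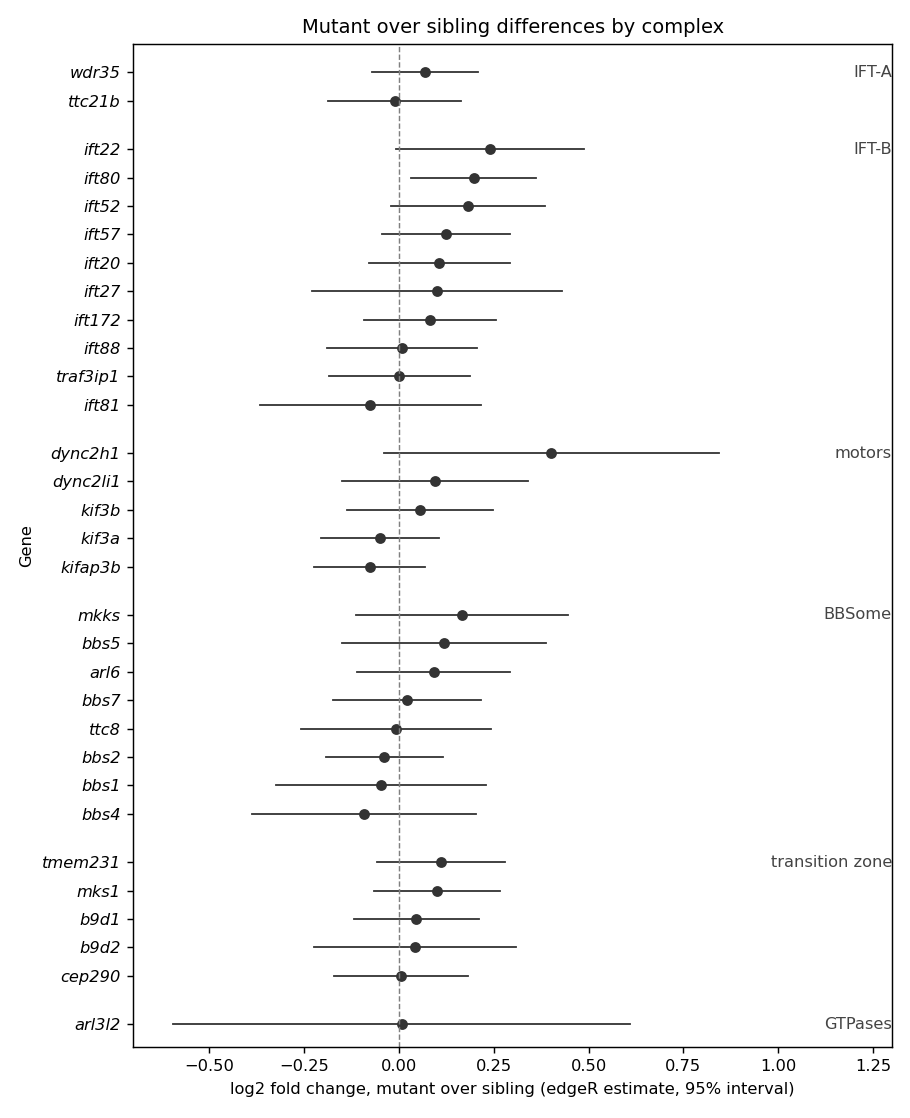
Log2 fold change of mutant over sibling (horizontal axis) for 31 ciliogenesis genes (vertical axis), ordered by complex, with points for the edgeR estimate and bars for its 95% interval. The interval left 0 for 1 of the genes, ift80 (0.03 to 0.36), and it was widest for arl3l2 (−0.59 to 0.61).

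The lowest edgeR p among the members belonged to ift80 and ift22 of IFT-B, and the next to the motor gene dync2h1. In 9 of the 10 IFT-B members the fit was above the siblings. Without mutant 6 this held in 8, with ift88 at −0.07 and traf3ip1 at −0.03 on the log2 scale. The log2 fold changes had a median of 0.10, and the lowest and highest were −0.07 (ift81) and 0.24 (ift22). The gene ift80, which encodes a peripheral subunit of the complex, ran from 8.83 to 10.6 TPM with a median of 9.57 TPM in mutants, against 8.68, 8.09, 8.53, 8.20 and 7.46 TPM in siblings. On this scale every mutant lay above every sibling, as for 0.569% of all genes tested. In CPM (counts scaled to library size by the TMM method, with no length scaling), which is closer to what was tested, the groups overlapped. Mutants averaged 17.9 ± 1.4 CPM, against 15.6 ± 1.0 CPM for the siblings (SD, 6 and 5 embryos). The fold was 1.15 (95% interval 1.02 to 1.29, edgeR unadjusted p = 0.0227, adjusted p = 0.677).

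The GTPase-like subunit gene ift22 ran from 14.4 to 21.4 TPM with a median of 15.2 TPM in mutants, against 13.2, 13.8, 14.9, 13.4 and 12.9 TPM in siblings. Mutants 6 (21.4 TPM) and 7 (17.5 TPM) were the highest, and mutant 1 lay within the sibling range. In log2 CPM mutants 1, 3 and 5 lay within it. Its fold was 1.18 (95% interval 0.99 to 1.40, edgeR adjusted p = 0.736) and its log2 fold change 0.24, against 0.16 without mutant 6. The core subunit gene ift52 ran from 16.8 to 22.3 TPM with a median of 18.6 TPM in mutants, against 16.1, 17.4, 14.3, 17.6 and 16.3 TPM in siblings. Mutants 1 and 7 were the highest here, and mutants 3 and 4 lay among the siblings (1.13-fold, 95% interval 0.99 to 1.31, edgeR adjusted p = 0.749). In log2 CPM mutant 5 also lay among them.

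In the member with the highest level, ift20, mutants ran from 23.0 to 28.8 TPM with a median of 25.3 TPM, and the siblings were at 22.8, 26.0, 21.8, 22.1 and 23.5 TPM. The groups overlapped through mutant 6, the lowest mutant, and sibling 3, the highest sibling (1.08-fold, 95% interval 0.95 to 1.22, edgeR adjusted p = 0.837). The lowest member of the complex, ift81, ran from 4.81 to 8.39 TPM with a median of 7.13 TPM in mutants, against 7.51, 6.22, 8.27, 6.22 and 8.06 TPM in siblings. Mutant 6, with 4.81 TPM, was the lowest of all 11 embryos for this gene, and the fitted difference of −0.07 on the log2 scale turned to 0.01 without it. The other members of the complex were ift27, ift57, ift88, ift172 and traf3ip1, at group means of 7.08 to 19.0 TPM, with overlapping groups.

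Among the members, the peripheral subunits of IFT-B are ift20, ift57, ift80, ift172 and traf3ip1. The fit was above the siblings for 5 of them with mutant 6 (traf3ip1 at 0.0015 on the log2 scale) and for 4 without it. Their summed level was 71.1 to 79.3 TPM in mutants and 62.1 to 70.5 TPM in siblings. These sums did not overlap on the TPM scale. Mean log2 CPM of the same genes was 4.20 to 4.43 in mutants and 4.16 to 4.28 in siblings, which overlapped. A further peripheral subunit gene, cluap1, is not a member and was left out of the sums. It was at 10.15 TPM in mutant 1 and 12.58 TPM in sibling 3, where the 5 genes summed to 72.2 and 70.5 TPM. With cluap1 added, mutant 1 lies below sibling 3, so the sums then overlap. The grouping of 5 was chosen after the values were seen and was not tested. Over all 10 IFT-B members the summed level was 140 ± 9.0 TPM in mutants (SD, n = 6) and 126 ± 3.4 TPM in siblings (SD, n = 5), with mutant 4 at 129.8 TPM below sibling 3 at 131.2 TPM. Mean log2 CPM of these members was 3.94 to 4.13 in mutants and 3.87 to 3.98 in siblings. There, mutants 1, 3 and 5 lay below sibling 3.

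In IFT-A, whose measured members were wdr35 and ttc21b, the fitted values were 0.07 and −0.01 on the log2 scale. The complex is required in vertebrates for return transport and for the entry of membrane proteins into the cilium. The gene wdr35 ran from 9.87 to 12.4 TPM with a median of 10.7 TPM in mutants, against 10.04, 9.46, 10.2, 9.91 and 10.7 TPM in siblings (1.05-fold, 95% interval 0.95 to 1.16, edgeR adjusted p = 0.865). Mutant 6 was the highest embryo and sibling 3 the lowest. For ttc21b mutants ran from 12.7 to 14.2 TPM with a median of 13.4 TPM, and siblings were at 14.2, 10.5, 13.9, 12.9 and 14.9 TPM. All mutants lay inside the range of the siblings, of which sibling 3 was the lowest (0.99-fold, 95% interval 0.88 to 1.12, edgeR adjusted p = 0.980).

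Among the motors the fit was above the siblings for the 2 dynein-2 members and below them for 2 of the 3 kinesin-2 members. The 95% interval of the fold included 1 for all 5. Outside the list, the row dync2i1 (0.97-fold, described below) and the kinesin-2 paralog kifap3a (1.06-fold) went the other way. The heavy chain gene dync2h1 had the largest fold of all members. It ran from 3.57 to 6.75 TPM with a median of 4.88 TPM in mutants, against 3.65, 3.42, 3.07, 3.81 and 4.91 TPM in siblings. Mutants 1, 6 and 7 lay above all siblings and mutants 3, 4 and 5 within their range. The fold was 1.32 (95% interval 0.97 to 1.79, edgeR adjusted p = 0.746). The light intermediate chain gene dync2li1 ran from 7.31 to 10.5 TPM with a median of 8.94 TPM in mutants, against 7.74, 7.61, 9.35, 7.96 and 8.43 TPM in siblings (1.07-fold, 95% interval 0.90 to 1.27, edgeR adjusted p = 0.899). The mutants spanned the whole sibling range.

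The kinesin-2 motor gene kif3a ran from 16.8 to 22.1 TPM with a median of 17.9 TPM in mutants, against 20.2, 19.1, 18.5, 17.0 and 19.4 TPM in siblings. Mutant 6 was the highest embryo, whereas mutant 4 was the lowest (0.97-fold, 95% interval 0.87 to 1.08, edgeR adjusted p = 0.920). The kinesin-associated protein gene kifap3b ran from 13.2 to 15.8 TPM with a median of 14.4 TPM in mutants, against 15.8, 12.4, 15.4, 15.7 and 14.9 TPM in siblings. The groups overlapped over nearly their whole range (0.95-fold, 95% interval 0.86 to 1.05, edgeR adjusted p = 0.856). Its paralog kifap3a, which is not on the list, was at 10.5 ± 1.2 TPM in mutants (SD, n = 6) and 9.68 ± 1.39 TPM in siblings (SD, n = 5). The remaining motor gene, kif3b, was at 9.93 ± 0.53 TPM in mutants and 9.38 ± 1.40 TPM in siblings.

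In the BBSome group the fit was above the siblings for 4 members (3 without mutant 6) and below them for 4, and the log2 fold changes had a median of 0.007. The 3 of lowest p were mkks, a chaperonin-like protein that helps the complex assemble, arl6, the GTPase that recruits it to membranes, and bbs5, a subunit that binds phosphoinositides. The gene mkks ran from 4.66 to 6.29 TPM with a median of 4.84 TPM in mutants, against 4.08, 4.42, 5.55, 3.67 and 4.72 TPM in siblings (1.12-fold, 95% interval 0.93 to 1.36, edgeR adjusted p = 0.826). Mutant 7 was the highest embryo and sibling 4 the next. The gene arl6 ran from 12.7 to 19.1 TPM with a median of 15.5 TPM in mutants, against 14.2, 14.2, 14.0, 13.5 and 15.6 TPM in siblings (1.07-fold, 95% interval 0.93 to 1.23, edgeR adjusted p = 0.880). Mutant 6 was its highest embryo and mutant 4 its lowest, so the mutants spanned the siblings.

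The gene bbs5 ran from 4.84 to 7.15 TPM with a median of 6.21 TPM in mutants, against 5.41, 4.75, 6.49, 4.83 and 5.70 TPM in siblings (1.09-fold, 95% interval 0.90 to 1.31, edgeR adjusted p = 0.883). The member of lowest level, bbs1, ran from 1.86 to 3.17 TPM with a median of 2.64 TPM in mutants, against 2.76, 2.50, 2.88, 2.63 and 2.35 TPM in siblings (0.97-fold, 95% interval 0.80 to 1.17, edgeR adjusted p = 0.955). Both genes had overlapping groups with mutant 6 as the highest embryo. The other subunits bbs2, bbs4, bbs7 and ttc8 had group means of 2.93 to 12.8 TPM and overlapping groups.

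For all 5 transition zone members the fit was above the siblings, but without mutant 6 for 4, with cep290 at −0.04 on the log2 scale. The log2 fold changes ran from 0.005 (cep290) to 0.11 (tmem231), with a median of 0.05, which was 0.008 without mutant 7. The gene tmem231, which encodes a membrane protein of the Meckel syndrome module, ran from 16.3 to 21.7 TPM with a median of 18.6 TPM in mutants, against 17.2, 15.4, 16.4, 17.9 and 17.0 TPM in siblings (1.08-fold, 95% interval 0.96 to 1.22, edgeR adjusted p = 0.810). In TPM, mutants 1, 3, 6 and 7 lay above all siblings and mutants 4 and 5 among them. In log2 CPM only mutant 1 lay above all siblings. For mks1, a B9-domain protein of the same module, mutants ran from 9.72 to 11.2 TPM with a median of 10.7 TPM, and siblings were at 9.44, 9.08, 11.1, 8.68 and 9.96 TPM (1.07-fold, 95% interval 0.96 to 1.202, edgeR adjusted p = 0.824).

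The gene b9d1 ran from 22.5 to 28.0 TPM with a median of 24.7 TPM in mutants, against 24.6, 23.8, 21.2, 24.8 and 23.4 TPM in siblings (1.03-fold, 95% interval 0.92 to 1.16, edgeR adjusted p = 0.934). The groups overlapped for all 5 genes. Summed over the 5, the level was 75.0 ± 4.5 TPM in mutants (SD, n = 6) and 70.2 ± 1.2 TPM in siblings (SD, n = 5). On this TPM scale mutant 4, with 67.9 TPM, lay below all siblings, and the other 5 mutants lay above them all. In mean log2 CPM of the same genes, siblings ran from 4.08 to 4.16. There, mutants 1 (4.15), 4 (4.13) and 5 (4.13) lay within the sibling range, and the remaining mutants lay above it. The 2 members not yet given, b9d2 and cep290, were at 10.7 ± 0.9 and 10.3 ± 1.3 TPM in mutants, against 10.2 ± 1.7 and 10.1 ± 0.7 TPM in siblings.

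Among the GTPases, arl3l2 is an ARL3-like gene, and ARL3 releases lipidated proteins in the cilium. It varied more than any other member, from 5.31 to 14.6 TPM with a median of 7.38 TPM in mutants, against 11.6, 4.59, 9.77, 5.68 and 8.37 TPM in siblings. Its spread was 41.1% of the mean in mutants and 35.9% in siblings, and its fold of 1.01 had a 95% interval of 0.66 to 1.53 (edgeR adjusted p = 0.996). Mutant 6 and sibling 2 were its highest embryos. The related gene arl3 was at 39.3 ± 4.3 TPM in mutants and 41.7 ± 3.0 TPM in siblings, and reads of such paralogs can be shared unevenly.

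**Figure D3:**
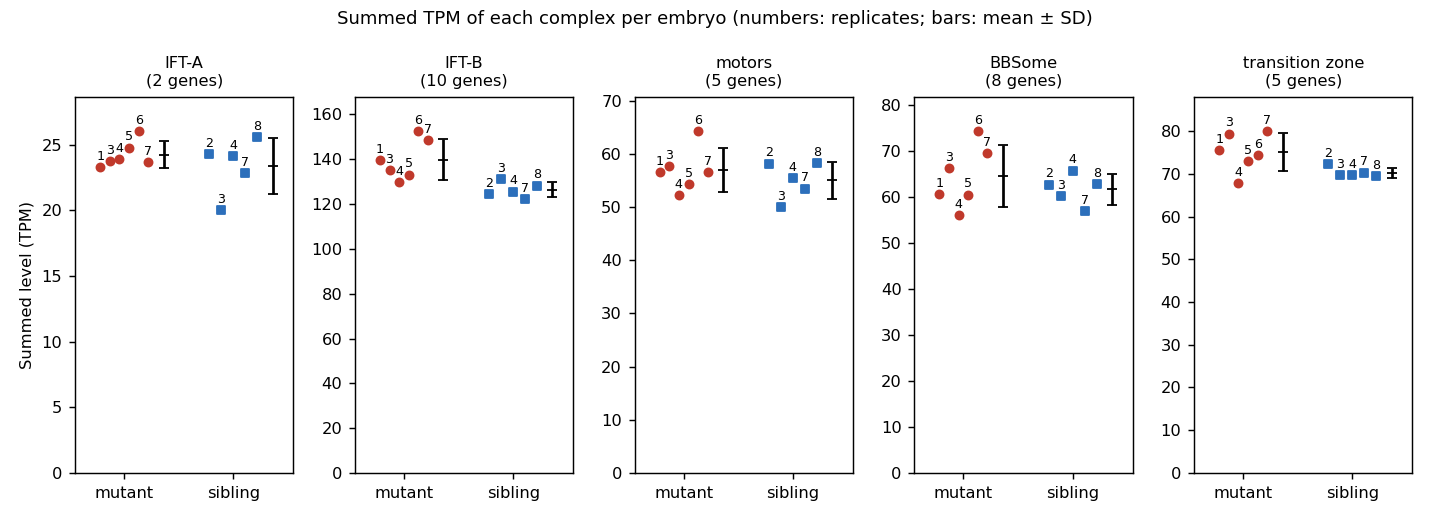
Summed TPM (vertical axis, from 0) of the members of each of the 5 complexes in every mutant (red circles) and sibling (blue squares), with replicate numbers beside the points and the mean ± SD in black. Mutant 6 had the highest sum in IFT-A (26.0 TPM), IFT-B (153 TPM), the motors (64.4 TPM) and the BBSome group (74.4 TPM), and mutant 7 in the transition zone (80.1 TPM).

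Summed over all 32 members, the level was 378, 391.6, 354, 370, 425 and 406 TPM in mutants 1, 3, 4, 5, 6 and 7, against 374, 355, 369, 350 and 373 TPM in siblings 2, 3, 4, 7 and 8. Mutants 6 and 7 stood highest, and mutants 4 and 5 lay within the sibling range. In mean log2 CPM over the members, siblings ran from 3.73 to 3.82. Mutants 6 (3.97) and 7 (3.93) lay above this range, mutants 1, 3 and 4 within it, and mutant 5 (3.722) just below it. The spread over embryos was larger in mutants than in siblings for 24 of the 32 members (75%), against 59.5% of all genes tested.

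Mutant 6 held the highest value of 18 of the 32 members (56.2%) in CPM, against 16.5% of all genes tested, and likewise 18 in TPM. These were 6 of 10 in IFT-B, 6 of 8 in the BBSome group, 3 of 5 motors, 1 of 2 in IFT-A, 1 of 5 in the transition zone and 1 of 2 GTPases. Mutant 7 held the highest CPM of 6 members (18.8%), against 12.2% of all genes. At the other end, mutant 6 held the lowest CPM of 1 member, ift81, against 18.1% of all genes, and mutant 7 of 0 members, against 12.7% of all genes. In TPM, mutant 6 was likewise the highest embryo for 13 of the 26 motile cilia genes tested (50%), against 18.4% of all genes tested. The 28 such genes in the table summed to 129 TPM in mutant 6 and to 88.9 to 104.7 TPM in the other mutants, against 97.1 to 103 TPM in siblings. This embryo also stood apart outside the ciliary genes. The summed level of 7 stress genes was 854 TPM in mutant 6 and 270.3 to 519.8 TPM in the other mutants, against 293.6 to 438.4 TPM in siblings. Of these genes 3 (mdm2, cdkn1a and gadd45aa) were highest in mutant 6, 3 (hsp70l, hspa5 and ddit3) in mutant 3 and 1 (atf3) in mutant 7. The 4 erythroid genes summed to 2883 TPM in mutant 6 and to 7013 to 12741 TPM in the other mutants, against 5981 to 8795 TPM in siblings. The part of these genes in the ciliary values of mutant 6 was not tested. In whole embryos a change in RNA per cell and a change in the number of ciliated cells cannot be told apart.

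**Figure D4:**
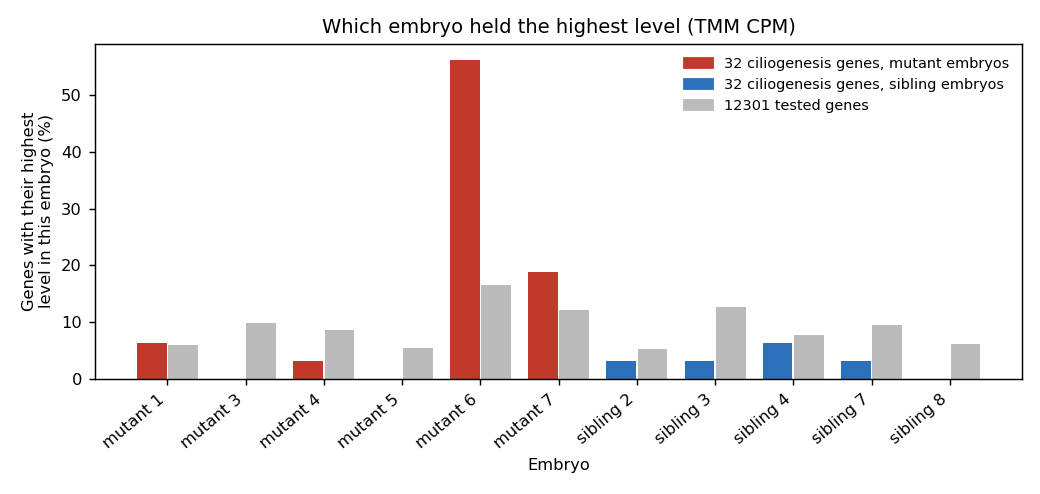
Share of genes (vertical axis, percent) whose highest CPM fell in each embryo (horizontal axis), for the 32 ciliogenesis genes (red for mutants, blue for siblings) and for all 12301 genes tested (grey). Mutant 6 held 56.2% of the ciliogenesis genes and 16.5% of all genes.

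A pair of listed genes was found under other names by the RefSeq gene table of the assembly GRCz12tu. The row zgc:92052, a synonym there of the IFT-B core gene ift74, was at 23.3 ± 2.8 TPM in mutants (SD, n = 6) and 21.8 ± 3.0 TPM in siblings (SD, n = 5), with a fold of 1.04 (95% interval 0.90 to 1.21). The row dync2i1, given there as a synonym of the dynein-2 intermediate chain gene wdr34, was at 4.48 ± 0.64 TPM in mutants and 4.53 ± 0.49 TPM in siblings (0.97-fold, 95% interval 0.80 to 1.17). The name dync2i1 can also denote the gene listed as wdr60, so which of these subunits the row measures is not certain. Neither row was counted among the members. There, 11 of the 32 members overlap a protein-coding gene, and the library kit does not mark strand, so reads of such a pair could be exchanged. The neighbours kpna4 of ift80 and atp5l of ift22 were at 0.95 and 0.91 times the sibling level in mutants, with intervals of 0.88 to 1.04 and 0.81 to 1.02.

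Other genes of the ciliary pathway were counted in the same fit. Of 54 names in 4 further groups 28 were in the table and tested. Of these, 4 had an unadjusted edgeR p under 0.05 and higher values in mutants (14.3%, against 3.79% of all genes), and 0 had lower values. None was called when adjusted over all genes. The share is read here without a test, since the names were listed with earlier results of these data known.

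The 4 include rpgrip1l, which encodes a protein of the transition zone, and hspb11, the zebrafish gene for the IFT-B subunit IFT25. The gene rpgrip1l ran from 6.82 to 9.77 TPM with a median of 8.54 TPM in mutants, against 6.85, 5.32, 6.57, 6.48 and 7.60 TPM in siblings (1.25-fold, 95% interval 1.07 to 1.44, edgeR adjusted p = 0.613). The gene hspb11 was at 30.0 ± 3.0 TPM in mutants and 25.4 ± 3.0 TPM in siblings (1.15-fold, 95% interval 1.00 to 1.33, edgeR adjusted p = 0.721). For both the groups overlapped. After hspb11, the next lowest p among the IFT adaptors belonged to rabl2, which encodes a GTPase that binds IFT-B (log2 fold change 0.07). Within the other groups the lowest p belonged to the basal body genes ofd1 (0.07) and odf2b (−0.19), and rab8b (0.18) and lztfl1 (−0.06), which act in membrane traffic to the cilium. The odf2b value rested on mutant 6, at 10.5 TPM where the other mutants were at 20.9 to 25.0 TPM, against 21.5 to 25.1 TPM in siblings.

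**Figure D5:**
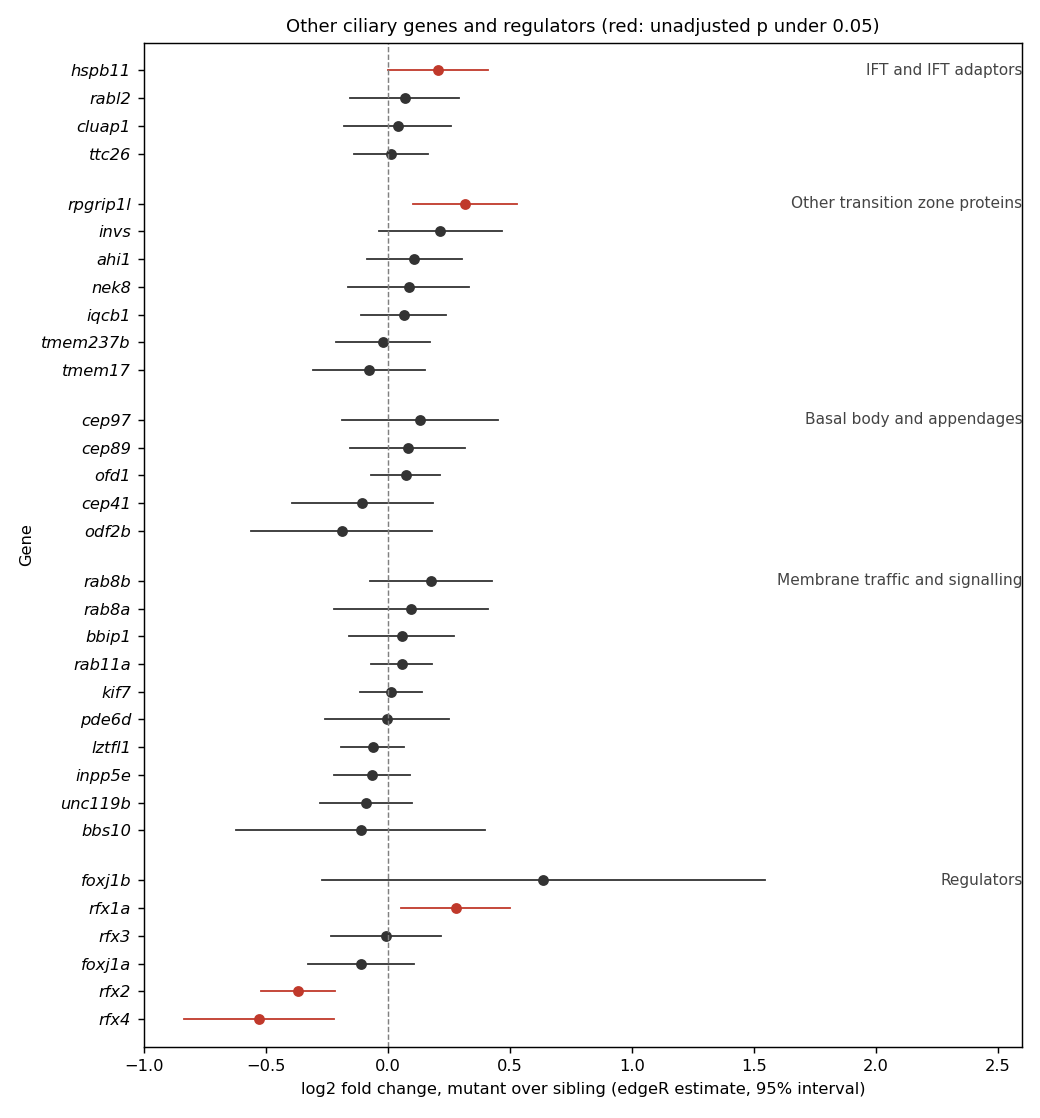
Log2 fold change of mutant over sibling (horizontal axis) with its 95% interval for 26 further ciliary genes and 6 regulators (vertical axis), with genes of unadjusted edgeR p under 0.05 in red. The 2 red ciliary genes, rpgrip1l and hspb11, lie to the right of 0, and of the red regulators rfx1a lies to the right (0.28) and rfx2 (−0.37) and rfx4 (−0.53) to the left.

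The gene rfx2, whose product drives ciliary genes in zebrafish and frogs, ran from 16.9 to 20.7 TPM with a median of 19.2 TPM in mutants, against 26.7, 23.9, 22.8, 22.3 and 25.8 TPM in siblings. All mutants lay below all siblings (0.78-fold, 95% interval 0.70 to 0.86, edgeR adjusted p = 0.176, DESeq2 adjusted p = 0.00241), as for 0.488% of all genes in CPM. The related gene rfx1a was at 6.45 ± 0.87 TPM in mutants and 5.20 ± 0.50 TPM in siblings (1.21-fold, edgeR adjusted p = 0.674). The motile cilia regulators foxj1a and foxj1b were at 0.93 and 1.56 times the sibling level by the fit. Mutant 6 was the highest embryo for both, and for foxj1b it was at 14.6 TPM, where the other mutants were at 2.66 to 3.90 TPM, against 2.62 to 4.24 TPM in siblings. Without mutant 6 the log2 fold change of foxj1b was −0.009 and that of foxj1a −0.20. The unadjusted edgeR p of foxj1a was 0.297 with all embryos and 0.016 without mutant 6 (edgeR adjusted p = 0.580).

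Of 46 names of motile cilia genes 26 were tested, and the fit was above the siblings for 15 and below them for 11, at a median of 0.04 on the log2 scale. At an unadjusted edgeR p under 0.05, tekt2 (0.49) and tekt4 (0.42), which encode tektins of the axoneme, were higher (7.69%, against 3.79% of all genes). At the same cut spata18 (−0.39) was lower (3.85%, against 3.06% of all genes). Its mutants all lay below its siblings, as for 0.488% of all genes in CPM. All of these genes had an edgeR adjusted p of at least 0.491. Over embryos, the median biological coefficient of variation, the spread that edgeR fits beyond counting error, was 10.7% over the 32 members, 16.1% over the motile cilia genes and 13.0% over all genes tested.

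Markers of other tissues were read from the same embryos. Floor plate genes, which mark the ventral midline that responds to Hedgehog signals, summed to 84.99 to 105.6 TPM in the mutants other than mutant 6 and to 129 TPM in mutant 6, against 118.6 to 135 TPM in siblings. At an unadjusted edgeR p under 0.05, 4 of 7 of them were lower, against 3.06% of all genes. No marker gene was called by edgeR when adjusted over all genes, whereas DESeq2 called the floor plate genes foxa2 (adjusted p = 0.00065) and ntn1b (adjusted p = 0.0063) and the progenitor gene fabp7a (adjusted p = 0.0186), all lower in mutants. The proliferation genes were lower at this p for 3 of 6, with sums of 2341 (mutant 6) to 3080 TPM in mutants and 2970 to 3267 TPM in siblings. Of the neural progenitor genes 1 of 5 was lower, of the neuronal genes 1 was higher and 1 lower of 5, and of the muscle genes 1 of 6 was higher, where 3.79% of all genes were higher. None of 4 erythroid and 4 pronephric genes passed, and 2 of 7 stress genes, hsp70l and cdkn1a, were higher. The cdkn1a log2 fold change of 1.44 was 0.41 without mutant 6, at an unadjusted edgeR p of 0.285. The part of these tissues in the ciliary values was not tested.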

How the data were processed

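RNA of 11 whole single zebrafish embryos was sequenced from TruSeq RNA v2 libraries, per the labels' protocols. Counts and, separately, TPM were deposited for 14473 genes. The submitters' processing notes name CASAVA 1.8.2, Bowtie 1.1.1, RSEM 1.2.18 and build Zv9 without their roles, and the annotation is not given in the sources used here. Since RSEM estimates counts and the deposited values are whole, they were taken as estimated counts that the authors had rounded. TPM values deposited by the authors are scaled for length and were used for levels. Every library is a separate embryo, and among 25 within-group pairs chi-square over its degrees of freedom was never under 7.79, so none was a repeat.

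Mutants and siblings were compared with edgeR 4.0.16 in R 4.3.3, by its quasi-likelihood test after TMM, filterByExpr (leaving 12301 genes) and Benjamini-Hochberg adjustment over all of them at 0.05. Standard errors and 95% intervals came from the F statistic. Alternatives used DESeq2 1.42.0, limma 3.58.1, other scalings and filters, TPM with pseudocounts of 1 and 0.1, a replicate block and leaving out each embryo. The fits were tested on simulated data. Members and lists were chosen with earlier results of these data known. The named genes are rfx4, members without overlap in CPM, the 3 of lowest p per complex (all called ones if more), each complex's highest and lowest level, and 2 of lowest p per wider list. Some genes under this rule are not reported here, singly or in figures, though counts over members and ciliary lists include them. The genes rfx1a, foxj1a, foxj1b, tekt2, kif3b, mdm2, gadd45aa, hspa5, ddit3, atf3, ift88, traf3ip1, cluap1 and cep290 and the subunit grouping were chosen after their values were seen. Marker lists were scored as summed TPM. Figures used matplotlib 3.10.9.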

Additional observations from a re-analysis of the deposited data

Results flagged for a closer look

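Values far from the rest of their group were looked for in CPM in 74 groups, which flags about 1 in 20 groups by chance. These were the mutant and sibling groups of rfx4, the named members, further ciliary genes, regulators and motile cilia genes, and of cdkn1a, hsp70l and mdm2. The other tissue and stress markers were not scanned. One of them, ntn1b, was at 8.48 TPM in mutant 6 (other mutants 3.11 to 4.22 TPM, siblings 8.10 to 9.91 TPM). The rate of 1 in 20 does not hold for rfx1a, foxj1b and mdm2 below, which were chosen after their values were seen. Among the members, sibling 8 was low for ift80 at 13.9 CPM (other siblings 15.7 to 16.2), sibling 3 was high for ift20 at 19.7 CPM (16.2 to 17.1), and mutant 6 was high for arl3l2 at 10.3 CPM (other mutants 3.72 to 5.68). Among the further ciliary genes and regulators, mutant 6 was low for odf2b at 22.5 CPM (47.9 to 52.7) and high for foxj1b at 22.3 CPM (4.34 to 6.02). Sibling 3 was low for rab8b at 16.3 CPM (20.4 to 21.1) and sibling 4 low for rfx1a at 8.39 CPM (10.4 to 10.5).

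Of the stress genes scanned, mdm2 and cdkn1a stood out in mutant 6, with mdm2 at 416 CPM (other mutants 53.1 to 138) and cdkn1a at 177 CPM (12.9 to 43.1). Sibling 4 was also high for both, with mdm2 at 134 CPM (other siblings 53.7 to 76.4) and cdkn1a at 35.9 CPM (11.9 to 16.1). The heat shock gene hsp70l was high in mutant 3, at 5.57 CPM (2.06 to 3.20). The gene gadd45aa was not scanned, and it was at 15.6 TPM in mutant 6 (other mutants 2.18 to 5.36 TPM, siblings 2.41 to 5.07 TPM).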

How the results depend on the processing

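No alternative called a member. The number of genes called was 0 by edgeR, 43 by DESeq2, 2 by limma-voom and 32 by limma-voom with sample weights, and ran from 0 to 24 when each embryo was left out, with 24 without mutant 6. The members higher at an unadjusted p under 0.05 numbered 1 by the main test, 3 with total counts, 4 on either TPM scale, 0 with the replicate block and 0 without mutant 7 and sibling 3 (added after seeing the data), and 1 to 4 when each embryo was left out, with 4 without mutant 3. The lower ones numbered 0 to 1 in those removals, with 1 without sibling 3. Of all genes tested, 3.79% were higher and 3.06% lower at this p by the main test, and 3.57% were higher without mutant 6. For the other settings the share over all genes is not given, so these counts are not read as a result about the members. The median log2 fold change over all genes also shifted upward, from 0.0009 by the main test to 0.029 with total counts. On the TPM scales it was 0.027 (pseudocount 1) and 0.030 (pseudocount 0.1). The median of IFT-B stayed between 0.07 and 0.14, whereas those of IFT-A, the motors and the BBSome crossed 0. With sample weights rfx4 was at −0.70 (adjusted p = 0.0434). The transition zone median was 0.0076 to 0.085 in the removals. In some single genes the sign turned and the cause was not tested. The ttc21b log2 fold change was 0.0014 with upper-quartile scaling, 0.016 with total counts, 0.023 and 0.025 on the TPM scales, and −0.079 to 0.025 with each embryo left out. For arl3l2 it was −0.35 with sample weights, −0.12 without mutant 7 and sibling 3 and −0.23 to 0.17 in the removals. In the removals bbs1 ran from −0.11 to 0.017, ift81 from −0.13 to 0.015, rabl2 from −0.002 to 0.11 and foxj1b, at 0.64 with all embryos, from −0.0094 to 0.77. Replicate numbers 3, 4 and 7 occur in both groups, and same-numbered embryos deviated from their group means with correlations of −0.31, −0.19 and −0.14. The best sibling match of mutant 7 was sibling 3, at 0.48, whereas mutants 3 and 4 reached 0.15 at best. These values do not show whether same-numbered embryos share more than a number. The replicate block compares mutants with siblings only within replicate numbers 3, 4 and 7. Embryos with other numbers, mutant 6 among them, add nothing to its difference. With the replicate block ttc21b was at 0.056, ift81 at 0.17, rabl2 at −0.0061, cdkn1a at −0.31 (1.44 without it) and mdm2 at −0.36 (0.85 without it). Counts averaged under 100 for 4 members, dync2h1 (28.8), bbs4 (82.9), bbs1 (85.5) and bbs5 (98.8). The widest 95% intervals were those of arl3l2 and dync2h1.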
